A study of Mus musculus with 20 samples.

Results

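Normal basal cells of the mouse mammary gland were compared with Sca1-positive (Sca1+) luminal cells of the same control genotype, gene by gene. The comparison was defined by the sample labels alone and used 6 of the 20 arrays in the series, 3 of control basal cells and 3 of control Sca1+ luminal cells. Each array held amplified RNA of 2000 sorted cells, and each log2 difference below is basal minus Sca1+ luminal, so that a positive value means a higher level in basal cells. The basal cells were CD45-negative, CD24-low and Sca1-negative, and the Sca1+ luminal cells were CD45-negative and CD24-high. Both groups were gated on GFP-negative cells of K8-creERT2 control mice of a mixed FVB/CD-1 background, 4 weeks after tamoxifen, which per the labels was given to all mice of the series. These controls are therefore not untreated wild types, because they carry the Cre recombinase driven by the keratin 8 promoter and received the drug. For each of the 3 sortings, glands of 2 to 3 mice of a genotype, synchronized in estrus, were combined, so that the spread between arrays is that between sorted pools. Of the other 5 groups, control Sca1-negative luminal cells (3 arrays) and GFP-positive cells of K8-creERT2/PIK3CA H1047R mutants from the basal gate (3 arrays) and the Sca1+ luminal gate (2 arrays) are used below. The mutants express a transgene of mutant PIK3CA, the catalytic subunit of PI3-kinase, in the cells marked by GFP.

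The mammary epithelium has an outer layer of basal, mostly myoepithelial cells and an inner layer of luminal cells. Myoepithelial cells hold a smooth-muscle type contractile apparatus, contract in response to oxytocin to eject milk, and lay down the basement membrane on which the duct rests. Among luminal cells, the Sca1+ fraction of virgin glands is known to be rich in hormone-sensing cells, which carry the estrogen and progesterone receptors and signal to their neighbours through secreted ligands. Luminal cells line the lumen with tight junctions and an apical membrane.

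The deposited values were log2 levels per probe set, and 19937 genes were tested. Array medians lay between 3.66 and 3.80 over the 20 arrays, and precision is limited by how few arrays each group has. Over all probe sets, arrays of 1 group correlated at 0.939 to 0.943 among basal cells and at 0.947 to 0.961 among Sca1+ cells, against 0.886 to 0.901 between the groups. Sca1+ replicate 2 had a narrower spread of values (SD 1.72) than the other 5 arrays (1.78 to 1.85). Without it, 909 genes were called higher and 1231 lower, against 1185 and 1260 with it.

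The labels were checked against marker genes. The 17 basal markers averaged 8.72 to 8.90 on the basal arrays and 4.57 to 4.83 on the Sca1+ arrays, and the 12 general luminal markers averaged 6.60 to 7.41 and 9.11 to 9.45. The 8 hormone-sensing markers averaged 4.55 to 4.76 on basal arrays and 6.97 to 7.52 on Sca1+ arrays. The order of the basal and Sca1+ groups in these lists matched the labels. On control Sca1-negative luminal arrays the hormone-sensing markers averaged 6.59 to 6.90, so they separated the luminal fractions far less than luminal from basal cells. The 8 markers of luminal progenitors averaged 6.83 to 6.99 on Sca1+ and 8.89 to 9.17 on Sca1-negative arrays. None of the 17 immune markers was called in limma (2 had an unadjusted p under 0.05), and Ptprc, which encodes the CD45 used to discard leukocytes, had a mean of 3.53 in basal and 3.66 in Sca1+ cells. The 9 adipocyte and 2 erythroid markers also had no call (3 and 0 at that unadjusted p). Of 14 fibroblast markers, Fbln1, Mfap5 and Cd34 were called higher in basal cells and Dcn lower, and the list averaged 4.25 to 4.52 on basal and 4.28 to 4.42 on Sca1+ arrays. Of 14 endothelial markers, Cdh5 was higher and Vwf lower, with list means of 3.55 to 3.98 on basal and 3.56 to 3.63 on Sca1+ arrays. Of 10 pericyte markers, Mcam was higher and Notch3 lower, with list means of 3.99 to 4.00 on basal and 3.63 to 3.79 on Sca1+ arrays. Of 7 Schwann-cell markers, Pmp22 and S100b were higher and Mbp lower, with list means of 4.52 to 4.62 on basal and 3.92 to 4.09 on Sca1+ arrays. The share called was 28.6% for fibroblast, 14.3% for endothelial, 20.0% for pericyte and 42.9% for Schwann-cell markers, against 12.3% of all genes. Levels were under 5 in both groups for 10 fibroblast, 14 endothelial, 9 pericyte and 5 Schwann-cell markers. The calls of Mfap5 and Cd34 were lost in 5, that of Notch3 in 4 and that of Cdh5 in 3 of the 6 fits that left out 1 compared array. Without basal replicate 3 the differences of Mfap5, Cd34 and Cdh5 were 0.82, 0.21 and 0.42, and that of Notch3 was -0.31 without basal replicate 2. Basal replicate 3 had the highest mean of the 3 basal arrays for the endothelial list (3.98, against 3.55 and 3.65) and the fibroblast list (4.52, against 4.25 on both), and the lowest for the general luminal list (6.60). The part of these cells in the results was not tested. In sorted bulk samples, fewer cells of a type and less RNA per cell cannot be told apart.

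Calls below are genes whose adjusted p in limma's moderated test (Benjamini-Hochberg over all genes) was under 0.05. Of the 19937 genes, 2445 (12.3%) were called, 1185 (5.94%) higher and 1260 (6.32%) lower in basal cells. Counts of called members in the gene lists below are to be read against these shares. The median difference of all genes was -0.01. Basal and Sca1+ arrays had no overlapping values for 2381 of the called genes, and for 25.1% of all genes. Of the calls, 1482 (7.43% of all genes) had a difference of at least 1 on the log2 scale. A difference of at least 2 was called for 292 genes higher and 240 lower in basal cells, and one of at least 4 for 59 and 39. The largest positive differences were those of Myl9 and Acta2 and the largest negative ones those of Gpx3 and AW112010, as the plot of size against adjusted p shows. No detection call was used here, so that levels near the array medians may be background. Differences against them, with their ranks, may be lower bounds. List members not called may also be background in both groups. Levels were under 5 in both groups for 17 of 42 Wnt, 16 of 37 guidance and 14 of 30 interstitial-matrix genes. The same held for 12 of 30 basement-membrane and 12 of 30 apical and secretory genes.

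**Figure D1:**
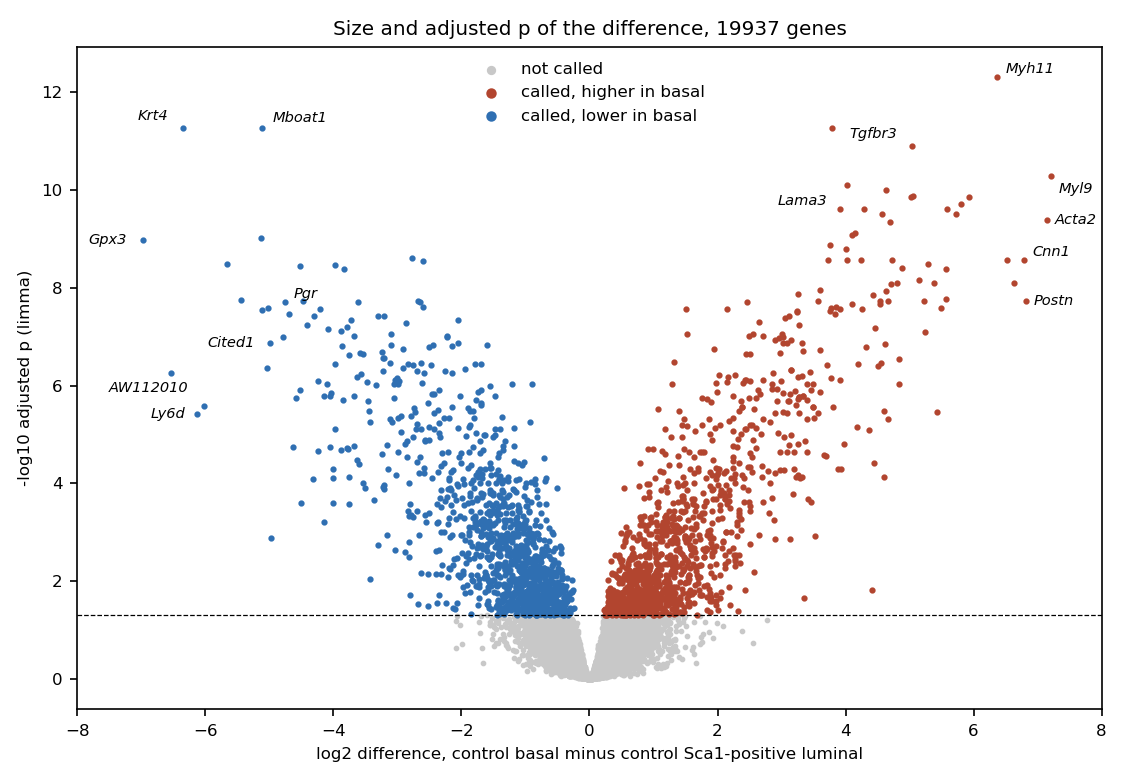
The x axis gives the log2 difference of each of the 19937 genes, control basal minus control Sca1+ luminal cells, and the y axis -log10 of its adjusted p. Red points are the 1185 genes called higher in basal cells, blue points the 1260 called lower, grey points were not called, and the dashed line is the threshold. Contractile genes (Myl9, Acta2, Myh11, Cnn1) lie at the far right and Gpx3 and Krt4 at the far left.

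Contractile genes had the highest median difference of the 35 gene lists. Of 25 measured genes of the contractile apparatus, 19 were higher in basal cells, 1 was lower and 5 were not called, with a median difference of 2.71 against -0.01 for all genes. Myl9, the regulatory light chain of smooth-muscle myosin, read 11.25, 11.31 and 11.38 in basal arrays, against 4.29, 4.02 and 4.01 in Sca1+ arrays. The groups did not overlap, with a log2 difference of 7.21 against Sca1+ levels near the array median (SE 0.26, adjusted p = 5.28e-11). Acta2, smooth-muscle actin, read 11.41, 11.31 and 11.44 in basal arrays, against 3.61, 5.15 and 3.98 in Sca1+ arrays, the second of which was the highest. Its difference was 7.14 (SE 0.32, adjusted p = 4.08e-10). Myh11, the smooth-muscle myosin heavy chain, had the smallest adjusted p of the gene list (4.93e-13), at 10.69, 10.52 and 10.70 in basal arrays against 4.31, 4.31 and 4.19 in Sca1+ arrays. Cnn1 (calponin, 6.78), Pdlim3 (5.57) and Tagln (transgelin, 5.29) followed. The actin crosslinker Actn1, which many cell types share, was not called (0.51), except without basal replicate 1 (0.65) and after quantile normalization (0.58). Fhl2, a LIM-domain cofactor, went the other way, at 6.61, 6.20 and 6.78 in basal arrays against 8.06, 7.90 and 8.92 in Sca1+ arrays (difference -1.76, adjusted p = 9.10e-04).

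The promoters of Myl9 and Acta2 are shown because these genes had the largest positive differences. Below are the 250 bases before the annotated start in RefSeq's table for GRCm38.p6, 5′ to 3′ on the gene's strand. The capitals mark the CArG box, the element bound by serum response factor, which was searched on both strands as a run of 10 bases that begins with CC, ends with GG and has at least 5 A or T among its 6 middle bases.
Myl9, chr2:156775214-156775463, plus strand: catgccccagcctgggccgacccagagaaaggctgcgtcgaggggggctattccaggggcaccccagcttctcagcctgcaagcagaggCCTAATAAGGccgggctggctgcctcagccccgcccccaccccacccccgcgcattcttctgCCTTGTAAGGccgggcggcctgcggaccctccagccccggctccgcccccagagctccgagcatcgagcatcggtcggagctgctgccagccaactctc
Acta2, chr19:34255374-34255623, minus strand: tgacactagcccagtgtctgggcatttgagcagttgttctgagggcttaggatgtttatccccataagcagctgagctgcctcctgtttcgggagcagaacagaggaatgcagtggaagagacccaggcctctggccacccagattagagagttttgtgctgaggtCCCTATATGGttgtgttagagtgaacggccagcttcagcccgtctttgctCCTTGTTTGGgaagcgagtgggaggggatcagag
Matches began 161 and 99 bases before the start in Myl9 and 84 and 34 bases before it in Acta2. At least 1 match was found for 7 of the 22 contractile genes with a listed promoter (31.8%), and for 2643 of the 27025 genes in the table (9.78%). These 7 were not all higher in basal cells, as they included Fhl2, which was lower. A match is a run of letters and not a measured binding site.

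Among regulators of contraction, Oxtr, the oxytocin receptor, differed most. It read 8.29, 8.52 and 7.93 in basal arrays, against 4.04, 4.15 and 3.59 in Sca1+ arrays (difference 4.32, SE 0.33, adjusted p = 1.66e-07). Prkg1, a cGMP-dependent kinase (3.04), and Cacna1c, a calcium channel subunit (1.47), were higher as well, and Rhoa, the small GTPase, was slightly lower (-0.44, adjusted p = 0.0456), a call that was lost in each of the 6 fits without 1 of the compared arrays. The other 9 of 13 were not called. Srf, which encodes serum response factor, read 7.02, 6.78 and 8.0 in basal arrays against 8.59, 7.67 and 8.71 in Sca1+ arrays, so that its arrays overlapped (difference -1.06, adjusted p = 0.0788). It was called lower without basal replicate 3 (-1.42) and without Sca1+ replicate 2 (-1.38). With array weights (-1.19) and with the filter on a mean of at least 5 (-1.06) it was called lower too. Mrtfb, which encodes a cofactor of that protein, was not called (-0.65), but was called lower without Sca1+ replicate 2 (-0.92) and with its probe sets averaged (-0.87, adjusted p = 0.00296 in limma).

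**Figure D2:**
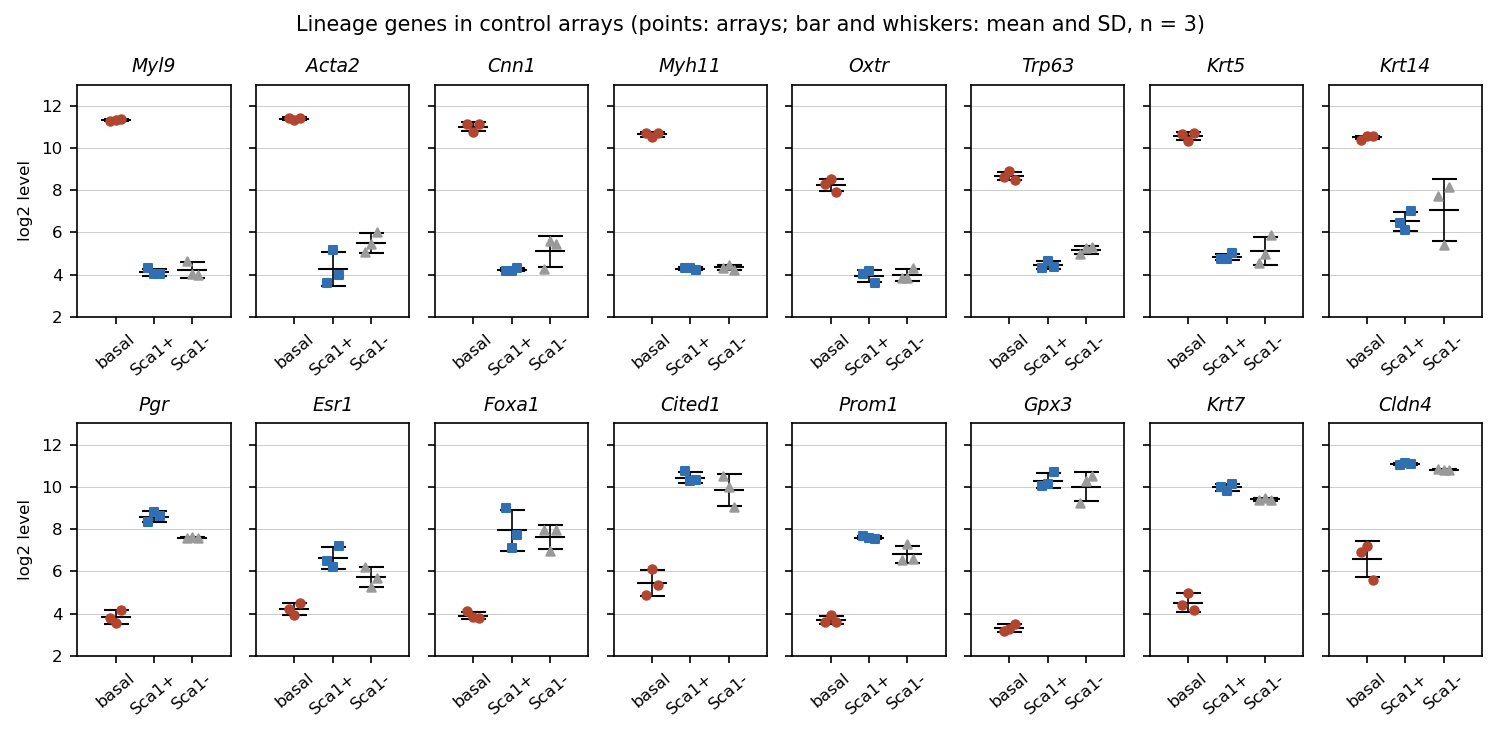
The y axis gives the log2 level of 16 lineage genes on each control array (points) for basal (red), Sca1+ luminal (blue) and Sca1-negative luminal cells (grey), with the mean and SD of 3 arrays. The contractile and basal genes of the upper row lie higher on every basal array than on any luminal array, and the luminal genes of the lower row are higher in both luminal groups than in basal cells.

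Of 19 basal transcription factors, 10 were higher in basal cells, 1 was lower and 8 were not called (median 0.93). Trp63, the p63 factor that maintains basal epithelia, read 8.60, 8.90 and 8.50 in basal arrays, against 4.31, 4.64 and 4.34 in Sca1+ arrays (difference 4.24, SE 0.22, adjusted p = 2.65e-09). Irx4, a homeobox factor (3.49), and Snai2, the zinc-finger repressor Slug (3.34), came next, followed by Id4 (2.27), an inhibitor of helix-loop-helix factors, and Egr3 (2.27). Snai2 varied more on the Sca1+ side, at 3.58, 4.19 and 5.09, but stayed below its basal values of 8.04, 7.34 and 7.49. Fosl1, a member of the AP-1 family, was lower in basal cells, at 6.53, 7.89 and 8.03 against 9.30, 8.80 and 9.40 in Sca1+ arrays (difference -1.68, adjusted p = 0.00112). Egr3 and Fosl1 are also members of the list of immediate early genes below. Among 20 genes of the epithelial-mesenchymal transition, Vim (vimentin, 4.69), Snai2, Mme (5.49) and the receptor kinase Axl (2.60) were higher. The splicing regulator Esrp2 (-1.35) and the trafficking GTPase Rab25 (-3.24) were lower, with Epcam and with Ovol1, whose call was lost without Sca1+ replicate 1 (-1.29). Snai1, the paralog of Snai2, was not called (-0.36).

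Keratins divided by layer with some exceptions. Of 9 keratins listed for stratified and basal cells, 4 were higher and 2 lower in basal cells. Of 8 keratins listed for simple epithelium, 1 was higher and 6 lower. These 6 include Krt4, which is better known from stratified mucosa. Krt5 read 10.63, 10.33 and 10.69 in basal arrays, against 4.75, 4.72 and 5.01 in Sca1+ arrays (difference 5.73, adjusted p = 3.06e-10). Its partner Krt14 differed less (3.98), at 10.39, 10.54 and 10.54 in basal arrays against 6.42, 6.12 and 7.0 in Sca1+ arrays. Krt17 (4.70) and Krt15 (1.82) were also higher. Krt6a and Krt16, keratins of stressed or wounded stratified epithelium, were lower in basal cells: Krt6a read 4.64, 4.58 and 3.76 in basal arrays against 8.52, 9.21 and 9.15 in Sca1+ arrays (difference -4.63, adjusted p = 1.81e-05). Krt4 was lowest relative to Sca1+ cells, at 3.90, 3.87 and 3.62 in basal arrays against 9.97, 10.44 and 10.02 in Sca1+ arrays (difference -6.35, adjusted p = 5.50e-12). Krt7 (-5.45) and Krt19 (-4.05) were lower too. Krt8 and Krt18, the general luminal pair, kept high values in the basal gate: Krt8 read 10.14, 10.84 and 10.04 in basal arrays against 11.93, 11.93 and 11.80 in Sca1+ arrays, a difference of -1.55, and that of Krt18 was -2.14. Krt23, a type I keratin, was higher in basal cells, at 5.08, 5.87 and 7.26 against 3.93, 3.58 and 3.79 (difference 2.30, adjusted p = 6.26e-04).

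Hormone-sensing genes were lower in basal cells with no exception in direction among those called. Of 17 measured, 11 were lower and 6 were not called, with a median of -2.43, the lowest of the 35 lists. Pgr, the progesterone receptor, read 3.77, 3.55 and 4.17 in basal arrays, against 8.32, 8.82 and 8.63 in Sca1+ arrays (difference -4.76, SE 0.30, adjusted p = 1.99e-08). Esr1, the estrogen receptor, read 4.22, 3.91 and 4.48 in basal arrays, against 6.49, 6.18 and 7.22 in Sca1+ arrays (difference -2.43, adjusted p = 7.87e-06). Foxa1, the pioneer factor that works with that receptor, varied among the Sca1+ arrays, at 9.0, 7.09 and 7.73, against 4.10, 3.82 and 3.79 in basal arrays (difference -4.04). Cited1, a transcriptional coactivator (-4.99), Tph1, which makes serotonin (-4.52), the fibrinogen chain Fgb (-4.14), Prom1, a protein of membrane protrusions (-3.88), and Myb (-2.61) were lower as well. Cxcl15, a chemokine, had the largest difference of the list (-6.02). Tbx3 (-0.16), Wnt4 (-0.65) and Tnfsf11 (RANKL, 0.06) were not called, although Wnt4 and Tnfsf11 encode known messengers of progesterone. Wnt4 was called lower without Sca1+ replicate 2 (-1.01), with array weights (-0.9) and with its probe sets averaged (-0.65). Tnfsf11 read 4.40 on average in basal and 4.34 in Sca1+ cells. The prolactin receptor, amphiregulin and Sca1 itself had no probe set with a single gene symbol and were not analysed here.

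Of 28 luminal transcription factors, Esr1, Pgr and Foxa1 among them, 13 were lower in basal cells, 1 was higher and 14 were not called (median -0.66). Ehf, an ETS factor, read 5.05, 3.89 and 4.31 in basal arrays, against 8.52, 8.40 and 8.35 in Sca1+ arrays (difference -4.01, adjusted p = 2.49e-04). Msx2, a homeobox factor, was lower by a similar size (-3.62). Tfap2c, the AP-2 gamma factor, was the exception, at 7.23, 8.29 and 7.86 in basal arrays against 4.55, 4.78 and 4.61 in Sca1+ arrays (difference 3.15, adjusted p = 1.18e-07). Gata3, a known regulator of luminal fate, was not called: it read 8.33 ± 0.28 in basal and 7.99 ± 0.69 in Sca1+ cells (SD, n = 3 each). Of 20 hormone receptors and coactivators, 6 were higher and 3 lower (45.0% called). Besides Oxtr, the vitamin D receptor Vdr (3.11), the insulin-like growth factor receptor Igf1r (2.47), the coactivator Ncoa1 (1.34) and the chaperone Fkbp4 (0.89) were among those higher in basal cells, and the mineralocorticoid receptor Nr3c2 (-1.07) was lower with Esr1 and Pgr.

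**Figure D3:**
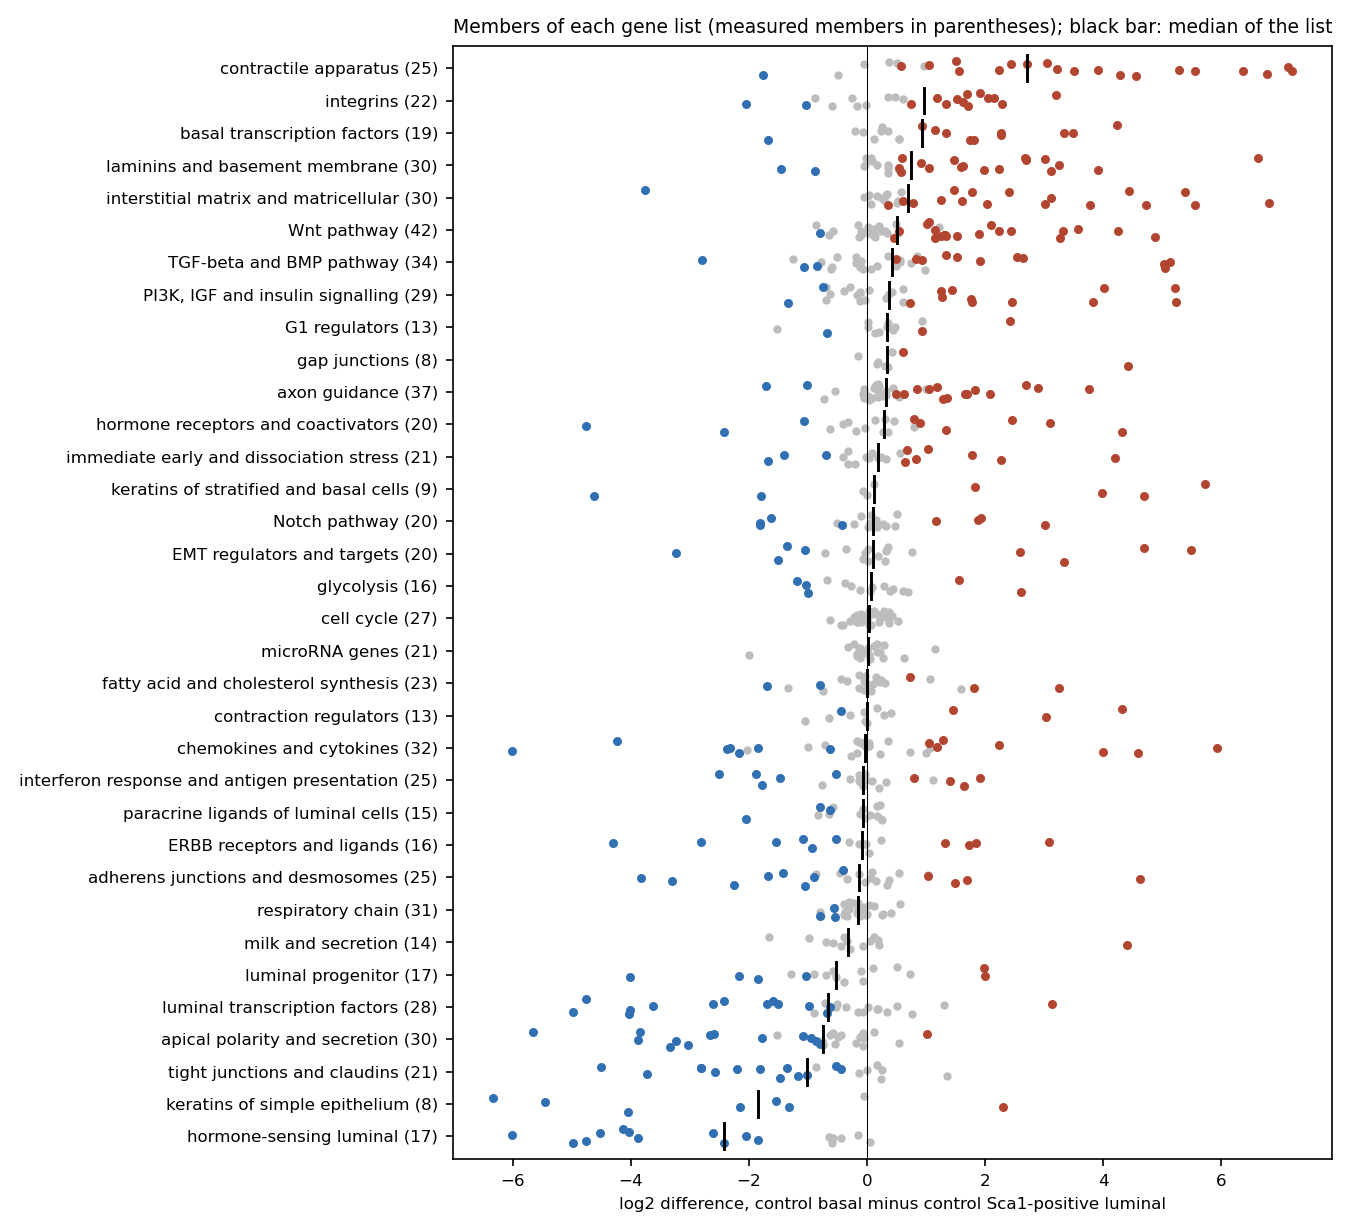
Each row is 1 of 34 gene lists, ordered by its median (black bar), with the number of measured members in parentheses, and each point is the log2 difference of 1 member, control basal minus control Sca1+ luminal. Red and blue points were called higher and lower in basal cells and grey points were not called. The contractile list has the highest median (2.71) and the hormone-sensing list the lowest (-2.43).

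Tight-junction genes were called in 1 direction. Of 21 measured, 13 were lower in basal cells, none was higher and 8 were not called (median -1.02). Cldn4, a claudin, read 6.93, 7.19 and 5.59 in basal arrays, against 11.02, 11.14 and 11.07 in Sca1+ arrays (difference -4.51, SE 0.69, adjusted p = 2.57e-04). The Sca1+ arrays were nearly equal while basal replicate 3, which was also lowest for the general luminal list, was lowest here. Cldn7 (-3.73), the junction proteins Marveld2 (-2.82) and Ocln (occludin, -2.81), Cldn3 (-2.58) and cingulin, Cgn (-2.20), were lower too. Among 25 genes of adherens junctions and desmosomes, 4 were higher and 8 lower, and the classical cadherins divided. Cdh3, P-cadherin, read 8.37, 8.76 and 9.03 in basal arrays, against 4.09, 4.00 and 4.18 in Sca1+ arrays (difference 4.63, adjusted p = 9.92e-11). Cdh1, E-cadherin, read 8.04, 8.30 and 8.34 in basal arrays, against 10.75, 10.16 and 10.54 in Sca1+ arrays (difference -2.25, adjusted p = 4.95e-07), so that it was lower but far from the bottom of the scale in basal cells. The desmosomal plaque and cadherin genes divided too, with Pkp2 (-3.84), Dsc2 (-3.30) and Dsg2 (-1.43) lower and Pkp1 (1.49) higher in basal cells. Ctnnb1, beta-catenin (0.15), and Dsp, desmoplakin (0.55), were not called. Of 8 connexins, Gja1 (connexin 43) was higher by 4.42 and Gjc1 by 0.61.

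Apical and secretory genes followed the junctions, with 13 of 30 lower, 1 higher and 16 not called (median -0.75). Tmprss2, a membrane-bound serine protease, read 4.11, 3.84 and 3.88 in basal arrays, against 10.12, 9.30 and 9.39 in Sca1+ arrays (difference -5.66, adjusted p = 3.23e-09). The sodium pump subunit Atp1b1 (-3.84), the protease inhibitor Spint1 (-3.33) and the chloride cotransporter Slc12a2 (-3.04) were lower as well.

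The promoters of Epcam, an epithelial adhesion molecule (difference -1.05, adjusted p = 4.24e-05), and Ocln are shown as examples of adhesion and junction genes that were lower in basal cells. Capitals mark the E-box, an element that Snail-family proteins are known to bind, as CAGGTG and its reverse complement CACCTG in the 250 bases before the start (RefSeq, GRCm38.p6, gene strand).
Epcam, chr17:87635729-87635978, plus strand: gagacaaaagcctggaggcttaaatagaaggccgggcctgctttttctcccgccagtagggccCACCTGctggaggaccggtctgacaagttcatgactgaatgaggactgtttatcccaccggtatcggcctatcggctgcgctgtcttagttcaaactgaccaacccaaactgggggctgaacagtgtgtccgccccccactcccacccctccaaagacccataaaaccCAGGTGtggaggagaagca
Ocln, chr13:100552499-100552748, minus strand: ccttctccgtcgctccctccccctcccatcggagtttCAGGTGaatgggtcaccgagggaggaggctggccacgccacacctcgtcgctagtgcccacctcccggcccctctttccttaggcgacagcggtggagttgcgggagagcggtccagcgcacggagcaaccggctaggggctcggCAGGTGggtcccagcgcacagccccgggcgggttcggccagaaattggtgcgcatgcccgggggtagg
Matches began 187 and 19 bases before the start in Epcam and 213 and 68 bases before it in Ocln. Ocln has 2 listed promoters, and that shown was chosen first by its number of matches. The motif was found for 8 of 18 tight-junction genes with a listed promoter (44.4%) and 2 of 7 adherens and desmosome genes (28.6%). Among all 27025 genes it was found for 5252 (19.4%). Only 7 of the 25 measured adherens and desmosome genes had a listed promoter. Some genes have several promoters, and per promoter the shares were 34.6%, 22.2% and 17.2%. No binding was measured.

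Genes of the basement membrane were mostly higher in basal cells, 18 of 30, with 2 lower and 10 not called (median 0.75). Sparc, a collagen-binding glycoprotein, read 10.90, 10.95 and 10.96 in basal arrays, against 3.91, 4.71 and 4.29 in Sca1+ arrays (difference 6.63, adjusted p = 7.98e-09). The laminin chains divided by gene. Lama3 (3.91), Lama1 (3.13) and Lamb1 (2.70) were higher, and Lama5 was lower, at 6.07, 6.60 and 6.51 in basal arrays against 7.89, 7.67 and 7.98 in Sca1+ arrays (difference -1.46, adjusted p = 2.53e-04). Col17a1, a collagen of hemidesmosomes (3.26), Hspg2, the proteoglycan perlecan (3.03), and the laminin-related Ntn4 (2.69) were higher.

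Of 30 genes of the interstitial matrix, 17 were higher, 1 was lower and 12 were not called (median 0.70). Postn, periostin, read 10.75, 10.38 and 10.65 in basal arrays, against 4.00, 3.90 and 3.43 in Sca1+ arrays (difference 6.81, SE 0.43, adjusted p = 1.83e-08). Ccn2, connective tissue growth factor (5.56), the proteoglycans Bgn (5.39) and Vcan (3.78), the fibril-associated collagen Col14a1 (4.73) and Mgp (4.45) were higher as well. Dcn, decorin, a gene usually used to mark fibroblasts, was the gene called lower: it read 6.16, 8.24 and 7.90 in basal arrays, against 11.20, 10.85 and 11.55 in Sca1+ arrays (difference -3.77, SE 0.45, adjusted p = 1.94e-05). The fibroblast list as a whole did not follow it, as its means above show. Among 22 integrins and their partners, 12 were higher and 2 lower (63.6% called, median 0.97). The integrins Itgb8 (3.20), Itga8 (2.29) and Itga1 (2.06) and the adaptor Parva (2.15) were higher, and Itgb6 (-2.05) and Itga2 (-1.04) were lower. Itgb1, the common beta chain, was not called (0.36), except after quantile normalization (0.43).

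Of 16 measured ERBB receptors, ligands and regulators, 4 were higher in basal cells and 6 lower (62.5% called, against 12.3% of all genes). Egfr read 7.66, 7.04 and 7.22 in basal arrays, against 4.17, 3.97 and 4.51 in Sca1+ arrays (difference 3.09, SE 0.23, adjusted p = 1.32e-07). Epgn, epigen, a ligand of that receptor, read 4.33, 3.77 and 3.56 in basal arrays, against 8.54, 7.90 and 8.11 in Sca1+ arrays (difference -4.30, adjusted p = 3.87e-08). The ligand Hbegf (-1.53) and the receptors Erbb3 (-2.81) and Erbb2 (-1.08) were also lower in basal cells. Nrg1, a ligand of ERBB3, was higher, at 4.42, 5.63 and 6.19 against 3.68, 3.46 and 3.91 (difference 1.73, adjusted p = 0.0188), and its call was lost in 4 of the 6 fits that left out 1 array, both luminal and basal (1.34 without basal replicate 3). Among regulators of these receptors, Lrig3 (1.85) and Lrig1 (1.32) were higher and Errfi1, an inhibitor of EGFR, was lower (-0.52, adjusted p = 0.0176), a call lost in 3 of the 6 fits (-0.41 without basal replicate 1, -0.45 without basal replicate 3 and -0.50 without Sca1+ replicate 2).

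Of 42 Wnt pathway genes, 20 were higher in basal cells, 1 was lower and 21 were not called (median 0.51). Without Sca1+ replicate 2 these counts were 15 and 3. Lgr5, a receptor for R-spondins, read 8.35, 8.22 and 8.61 in basal arrays, against 3.51, 3.56 and 3.46 in Sca1+ arrays (difference 4.88, SE 0.27, adjusted p = 4.02e-09). Its relatives Lgr4 (3.57) and Lgr6 (3.33) and the Wnt receptor Fzd7 (4.26) were higher, as were the secreted inhibitors Wif1 (3.27) and Sfrp1 (2.44). Among the ligands, Wnt7b was the gene called lower (-0.79), a call lost without basal replicate 3 (-0.60) or Sca1+ replicate 1 (-0.60), and Wnt5a was not called (-0.57) except without Sca1+ replicate 2 (-0.84).

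In the Notch pathway, 4 of 20 genes were higher in basal cells and 4 lower. Dll1, a ligand, read 6.93, 7.33 and 6.49 in basal arrays, against 3.92, 4.01 and 3.79 in Sca1+ arrays (difference 3.01, adjusted p = 8.71e-08), and Jag2, another ligand, was higher by 1.93. The target gene Hes1 read 6.51, 6.23 and 6.94 in basal arrays, against 8.28, 8.46 and 8.39 in Sca1+ arrays (difference -1.81, adjusted p = 3.25e-06). Notch1 was lower by a like amount (-1.82, adjusted p = 0.00983) with a wider spread, at 4.05, 5.65 and 5.69 against 7.58, 6.20 and 7.06, and was not called without Sca1+ replicate 1 (-1.50). Numb, an inhibitor of Notch receptors, was lower too (-1.62), while Jag1 and Notch2 were not called (0.47 and -0.51).

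**Figure D4:**
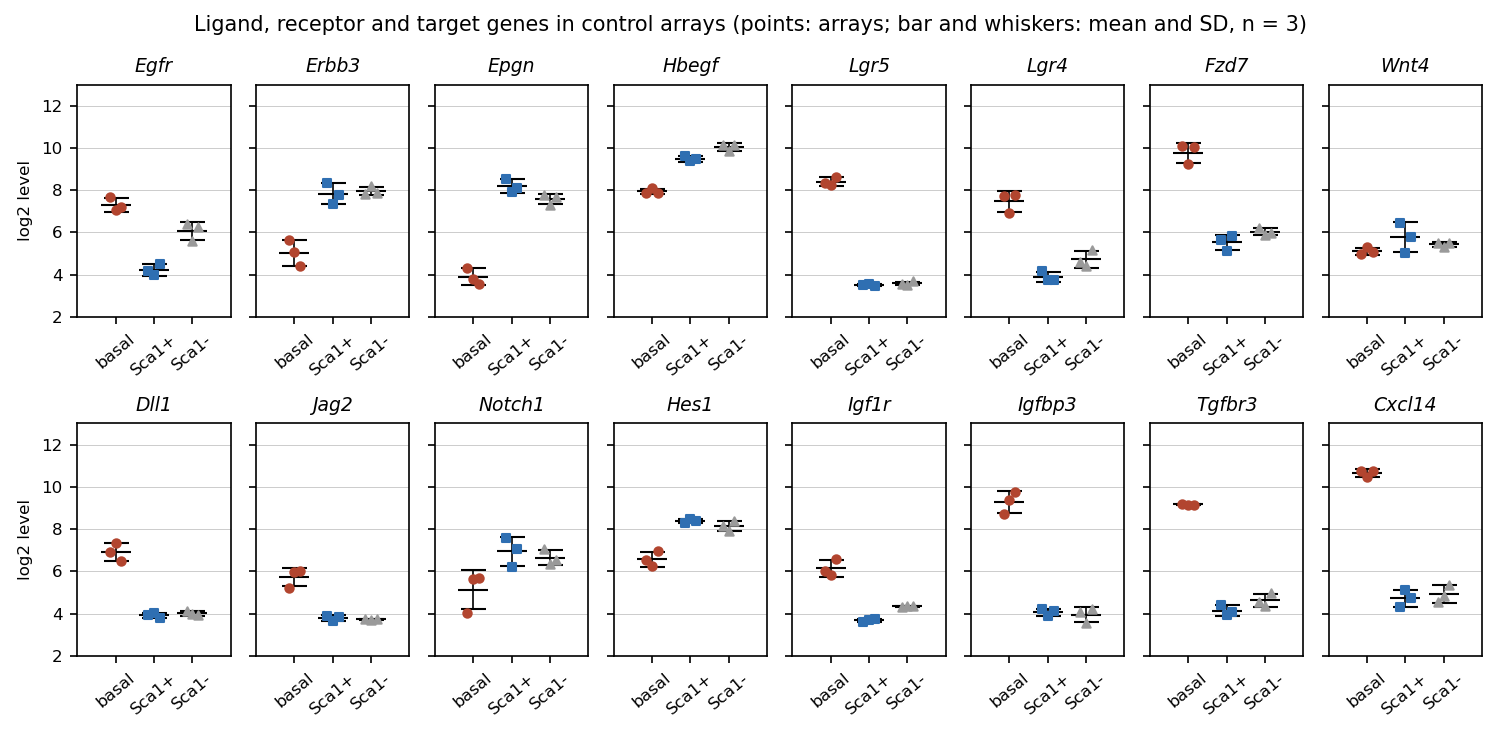
The y axis gives the log2 level of 16 ligand, receptor and target genes on each control array (points) for basal (red), Sca1+ luminal (blue) and Sca1-negative luminal cells (grey), with the mean and SD of 3 arrays. Egfr, Lgr5, Dll1 and Igfbp3 are high in basal arrays, Epgn and Hes1 in Sca1+ arrays, and Wnt4 was not called.

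Of 34 genes of the TGF-beta and BMP pathway, 11 were higher and 3 lower (41.2% called, median 0.43). Tgfbr3, the coreceptor betaglycan, read 9.19, 9.16 and 9.15 in basal arrays, against 4.41, 3.92 and 4.07 in Sca1+ arrays (difference 5.03, SE 0.16, adjusted p = 1.27e-11). Ltbp2, a latent TGF-beta binding protein of the matrix (5.14), Fstl1, a follistatin-like protein (5.05), follistatin itself, Fst (2.64), and the ligand Bmp7 (2.54) were higher as well. The activin subunits Inhba (-2.80, adjusted p = 0.0193) and Inhbb (-1.07) were lower, and the call of Inhba, which ranged from 5.55 to 8.10 over the Sca1+ arrays, was lost in 3 of the 6 fits (-2.17 without Sca1+ replicate 2). Insulin-like growth factor and PI3-kinase genes were higher for 11 of 29 and lower for 2 (44.8% called, median 0.38). The binding proteins Igfbp7 (5.24), Igfbp3 (5.22), Igfbp2 (4.02) and Igfbp5 (3.83) led, with Igf1r and the adaptor Irs2 (1.78). Pik3ca read 6.15, 6.63 and 6.61 in basal arrays, against 5.33, 5.12 and 5.16 in Sca1+ arrays (difference 1.26, adjusted p = 0.00379). The phosphatase Inppl1 was lower (-1.33).

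Of 32 chemokines and cytokines, 7 were called higher and 7 lower (43.8%, against 12.3% of all genes). Cxcl14 read 10.76, 10.45 and 10.75 in basal arrays, against 4.33, 5.11 and 4.73 in Sca1+ arrays (difference 5.93, adjusted p = 1.37e-10). Il17b (4.59), the scavenging receptor Ackr3 (4.01) and its ligand Cxcl12 (2.24) were higher, and Cxcl17 (-4.24), Il33 (-2.37), Lif (-2.33) and lactoferrin, Ltf (-2.17), were lower beside Cxcl15. Guidance genes were higher for 14 of 37 and lower for 2 (43.2% called, median 0.32), or 11 and 3 without Sca1+ replicate 2. The semaphorins Sema3c (3.76) and Sema5a (2.90) and Slit3 (2.09) were higher and Sema4a (-1.71) and the ephrin receptor Epha2 (-1.02) lower.

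The genes with the largest differences included some outside these lists. Scn7a, a sodium channel family member, read 10.03, 9.53 and 9.55 in basal arrays, against 3.13, 3.17 and 3.23 in Sca1+ arrays (difference 6.52, adjusted p = 2.71e-09). Adamts1, a secreted metalloprotease (5.80), Antxr1, a collagen-binding receptor (5.58), and Ecrg4 (5.43) were also among the 15 most positive. Gpx3, the secreted glutathione peroxidase, had the most negative difference, at 3.15, 3.26 and 3.52 in basal arrays against 10.05, 10.13 and 10.69 in Sca1+ arrays (-6.98, SE 0.34, adjusted p = 1.06e-09). Its basal levels lay below the array medians. AW112010 (-6.53), Ly6d (-6.14), the secreted hormone Stc2 (-5.13), the tetraspanin Tspan13 (-5.12), the acyltransferase Mboat1 (-5.11), the lectin Lgals3 (-5.03), Tlcd4 (-5.02) and Mal2, a protein of apical transport (-4.79), were among the 15 most negative. Sprr1a, a gene of the cornified envelope, belonged to them with uneven basal values of 8.49, 7.42 and 4.31, against 11.63, 11.61 and 11.92 in Sca1+ arrays (-4.98, SE 0.91, adjusted p = 0.00132).

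General programmes ranged from no calls to a share above that of all genes. None of 27 cell-cycle genes was called, nor any of 21 microRNA genes (limma; 1 of each had an unadjusted p under 0.05), and 23 of these cell-cycle genes and 19 of the microRNA genes read under 5 in both cell types. Of 31 respiratory-chain genes, 3 were called, all lower (9.68%, near the 12.3% of all genes). Of 14 milk genes, Glycam1 alone was called, at 10.16, 3.23 and 9.21 in basal arrays against 3.17, 3.02 and 3.17 in Sca1+ arrays (difference 4.41, SE 1.12, adjusted p = 0.0152). Basal replicate 2 lay at the Sca1+ level, and the call was lost without basal replicate 1 (3.10) and without basal replicate 3 (3.58). The casein Csn3 was not called (-0.69, SE 0.49). Other caseins varied widely between arrays of 1 group, with an SE of up to 1.19. The absence of a call for them therefore does not show equal levels. Immediate early genes, which dissociation of tissue can raise, were called higher for 7 and lower for 3 of 21 (47.6%). Among them Egr2 (4.20) and Nr4a1 (1.79) were higher and Klf6 (-1.40) lower. Of 25 interferon and antigen-presentation genes, 36.0% were called. Irf1 (1.91) and Ifitm2 (1.65) were among 4 higher, and the immunoproteasome subunits Psmb9 (-2.51) and Psmb8 (-1.88) among 5 lower. Of 16 glycolysis genes (31.2% called), Ldhb (2.60) and Pfkp (1.56) were higher and 3 lower.

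Sca1-negative luminal cells of the control genotype place the Sca1+ values beside the other luminal fraction. Their contrasts with either group share arrays with the main comparison and are given as values only. Between basal and Sca1-negative cells, 1972 genes (9.89%) were called. Between Sca1+ and Sca1-negative luminal cells, 152 genes (0.762%) were called, 37 higher and 115 lower in Sca1+ cells. Pgr averaged 8.59 in Sca1+ and 7.59 in Sca1-negative cells (SD 0.25 and 0.02, n = 3 each), a difference of 1.0 that was not called (adjusted p = 0.211 in limma). Esr1, Foxa1, Cited1, Prom1 and Gpx3 were not called between the luminal groups either, and Krt4 was higher in Sca1+ cells by 1.06 (adjusted p = 0.0164). Some genes that were higher in basal than in Sca1+ cells were also low in Sca1+ relative to Sca1-negative cells. Egfr averaged 4.22 in Sca1+ and 6.07 in Sca1-negative cells (adjusted p = 8.03e-04), beside 7.31 in basal cells. Ccn2 averaged 5.0 in Sca1+ and 7.79 in Sca1-negative cells (adjusted p = 2.15e-04), beside 10.56 in basal cells. Likewise Lcn2, lipocalin 2, averaged 9.52 in Sca1+ and 11.47 in Sca1-negative cells (adjusted p = 5.41e-05), close to its basal mean of 11.51.

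The lineage difference was also measured on separate arrays of GFP-positive mutant cells, 3 basal and 2 Sca1+ luminal. The control cells were GFP-negative, so that genotype and GFP status cannot be told apart here. There 2125 genes (10.7%) were called, 896 higher and 1229 lower in basal cells. Higher in both genotypes were 499 genes, 55.7% of the mutant list and 42.1% of the control list, and lower in both were 664, 54.0% and 52.7%. Only 7 genes were called in opposite directions. Of the genes called in controls, 92.8% had the same sign in mutants, against 63.3% of all genes. Acta2 differed by 6.10 in mutants and by 7.14 in controls, Gpx3 by -6.96 and -6.98, and Pgr by -4.76 and -4.76. The difference between the lineage differences was called for 218 genes (1.09%), 116 more positive and 102 more negative in mutants, and 122 of them were among the genes called in controls. Lgr5 had a lineage difference of 1.21 in mutants and 4.88 in controls (adjusted p of the difference 1.54e-04), and Scn7a one of 2.29 and 6.52 (adjusted p = 4.19e-04). Dcn had -0.54 in mutants and -3.77 in controls (adjusted p = 0.0260). With 2 mutant Sca1+ arrays these values rest on fewer arrays than those of controls.

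**Figure D5:**
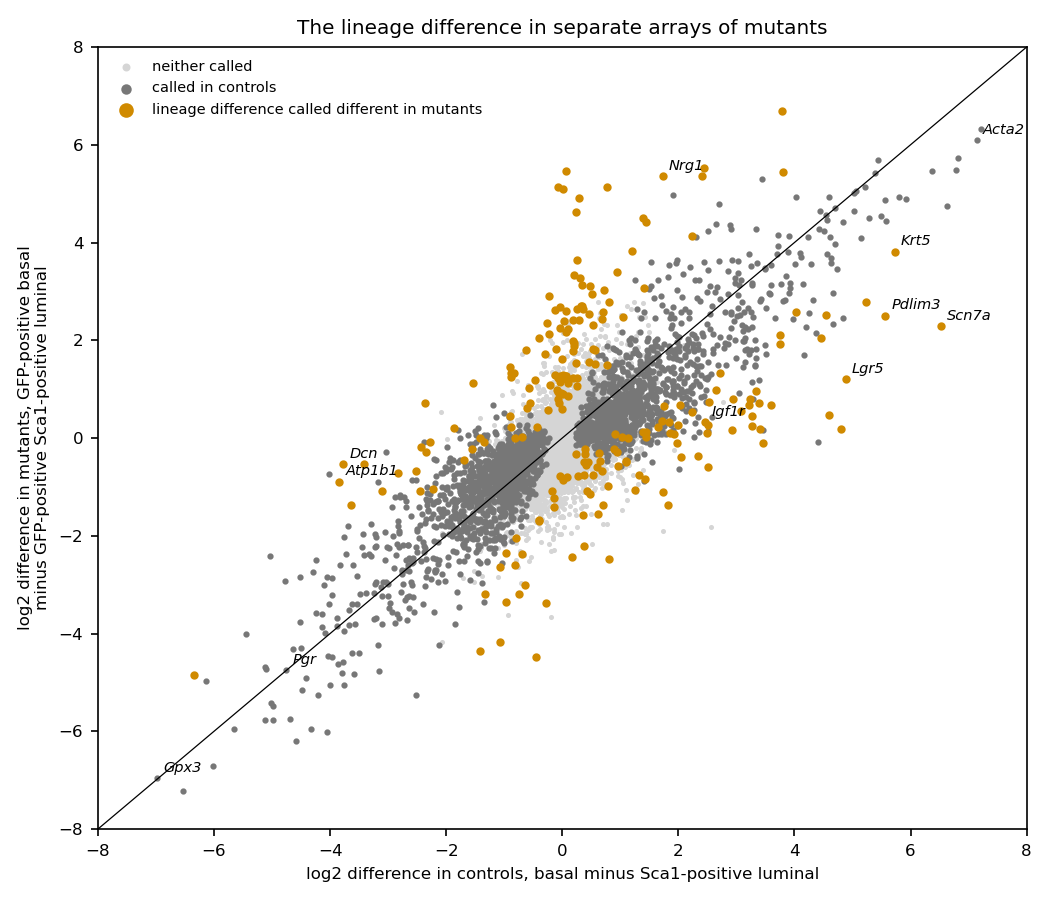
Each point is a gene, with its log2 lineage difference in controls (basal minus Sca1+ luminal) on the x axis and in GFP-positive mutant cells on the y axis, and the line marks equal values. Dark grey genes were called in controls and light grey genes were not. The 218 orange genes had lineage differences that were called different between GFP-positive mutant and GFP-negative control cells. Gpx3 and Pgr lie near the line, and Lgr5, Scn7a and Dcn lie away from it.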

How the data were processed

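RNA of sorted mouse mammary cells was amplified and hybridised to Affymetrix mouse gene arrays, per the labels' protocols. The authors deposited log2 values per probe set, which were used as deposited. The affy package is named in the submitters' processing notes, and the normalization method and genome build are not given in the sources used here.

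Of 34760 probe sets, 21640 carried 1 gene symbol in the platform annotation, 1321 carried several and 11799 had none there, and 21553 were matched by gene number to RefSeq's GRCm38.p6 table. Where a gene had several probe sets (954 genes), the probe set of highest average level across the 20 arrays stood for it, which left 19937 genes. Groups were taken from the labels. One model with 7 group means was fitted over the 20 arrays with limma 3.58.1 in R 4.3.3, so that all groups share 1 estimate of the spread, and p-values were adjusted by Benjamini-Hochberg over all genes within each contrast. The fit was tested on simulated data. Tables and figures were made with Python 3.11.15, pandas 2.3.3 and matplotlib 3.10.9. Scan dates were not used here.

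Named genes were the 15 largest called differences in each direction whose arrays did not overlap, up to 6 called members per list and direction, up to 3 members not called with the highest means, and a fixed set of lineage genes. Not every gene that this rule allows is named. Cd34, Cdh5, Fbln1, Mbp, Mcam, Mfap5, Pmp22, S100b and Vwf were named after their values were seen. The members and lists were chosen with earlier results of these data known. Alternatives were another probe-set rule, quantile normalization, a filter on the mean level, a variance trend, array weights, other sets of arrays, a replicate block, a minimum difference and the omission of each array. The counts per list without Sca1+ replicate 2 were added after the data were seen.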

Additional observations from a re-analysis of the deposited data

Results flagged for a closer look

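The lineage difference, basal minus Sca1+ luminal, was compared between GFP-positive mutant cells and GFP-negative control cells with an interaction term in limma. This term passed an adjusted p of 0.05 in 218 genes (2028 had an unadjusted p under 0.05). Genotype and GFP status cannot be told apart in it. All genes below stand here because that term passed in them, and each value is the log2 lineage difference in mutants minus that in controls, with 3 and 2 arrays in mutants and 3 and 3 in controls.

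The difference was more positive in mutants for the ERBB ligand Nrg1 (3.63), Dcn (3.23), Sfrp1 (3.09), Il33 (3.08), Atp1b1 (2.95), Vcan (2.90), Jag1 (2.64), Cxcl12 (1.90) and Krt4 (1.49). It was more negative in mutants for the sodium channel gene Scn7a (-4.24), Lgr5 (-3.68), Pdlim3 (-3.06), Igfbp7 (-2.45), Igf1r (-2.14), Krt5 (-1.91), Sema3c (-1.83) and Lcn2 (-1.74). Without 1 array the number of such genes was 117 to 216, the lowest without mutant Sca1+ replicate 3.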

How the results depend on the processing

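The 2445 calls between control basal and Sca1+ cells were 2493 with the replicate number as a block, 2369 with array weights, 2387 with a variance trend, 2547 after quantile normalization, 2472 with probe sets averaged, 1821 with a mean of at least 5, 2093 with only the control arrays and 1697 with only the compared arrays. The block on the 6 compared arrays alone gave 1382 (679 higher, 703 lower in basal cells), and a minimum difference of 1 gave 1482 (725 higher, 757 lower). The labels do not say whether a number marks 1 sorting, so same-numbered arrays were not treated as pairs. Their deviations from the group means correlated at -0.0027, -0.0192 and 0.0192 over all genes. Such correlations cannot exclude a shared effect of sorting in some of the genes. Without 1 array the calls were 1985 to 2149, with 909 to 1110 higher and 1006 to 1231 lower. Of 191 named genes, 175 were called. The filter on the mean removed 24 of these, of which 11 were called in the other 14 alternatives, and 136 were called in all 15. The other 28 lost the call in some alternative, none of the 175 changed sign, and 6 of the 16 uncalled genes were called in some. The uncalled differences of Gata3 and Ptprc changed sign without Sca1+ replicate 2 (-0.001 and 0.059), and without 1 array ranged from -0.001 to 0.692 and from -0.255 to 0.059. Basal against Sca1-negative cells gave 1277 of 1972 calls with the minimum difference, and 1531 to 1796 without 1 array. Sca1+ against Sca1-negative cells gave 43 of 152 with only their own arrays, 231 with array weights and 82 to 120 without 1 array, the lowest without Sca1-negative replicates 1 (82) and 3 (83). The mutant comparison gave 1322 to 1996 of 2125 without 1 array, the lowest without mutant Sca1+ replicates 3 (1322) and 1 (1341). The test of mutant against control cells gave 124 of 218 with only its own arrays, 114 with the filter on the mean and 117 to 216 without 1 array.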
